A study of Mus musculus with 4 samples.

Results

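The 8 genes described here encode the inhibitory receptors PD-1 (Pdcd1), LAG-3 (Lag3), TIM-3 (Havcr2), TIGIT (Tigit), CTLA-4 (Ctla4), CD160 (Cd160) and BTLA (Btla), and the transcription factor TOX (Tox). They were taken by symbol, and 8 of 8 symbols were found among the 27998 genes of the count matrices. Their transcripts were counted by droplet single-cell RNA-seq of the 3′ ends of mRNA in splenic CD8+ T cells that bind the GP33 tetramer, that is, T cells specific for the GP33 epitope of lymphocytic choriomeningitis virus (LCMV). The cells came from mixed bone marrow chimeras, in which WT marrow carrying CD45.1 and Bcl3-/- marrow carrying CD45.2 together reconstituted Rag1-/- hosts after sub-lethal irradiation, and were sorted on day 8 of infection with the LCMV Armstrong strain. There were 2 chimeras, and each gave 1 WT library and 1 Bcl3-/- library, so both genotypes of a chimera shared host, infection and sort. The mice's age is not stated in the sources used here. The CD45 allele differed with the genotype in both chimeras, so the deletion and the congenic strain cannot be told apart.

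Inhibitory receptors are induced on T cells by antigen, and most of them lower signalling from the T cell receptor or from CD28 through phosphatases that they recruit or by competing for ligands. In acute infection they are expressed for a time on effector cells, whereas in chronic infection they stay high together on exhausted cells. TOX, a DNA-binding protein of the HMG-box family, is known for driving that exhausted state and is also expressed in early thymocyte development. Bcl-3 is related in sequence to the IκB inhibitors but works in the nucleus, bound to the NF-κB subunits p50 and p52.

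Barcodes with fewer than 500 detected genes, or with over 10% of their UMIs from mitochondrial genes, were removed. There remained 4941 cells for WT in chimera 1, 8092 for WT in chimera 2, 5366 for Bcl3-/- in chimera 1 and 6494 for Bcl3-/- in chimera 2. The libraries held 21193300, 20358780, 22922219 and 22672343 UMIs in the same order, a UMI being the tag of 1 captured mRNA molecule. The median depth per cell was 3571, 2019, 3620.5 and 2948 UMIs, so WT cells of chimera 2 were the shallowest. Any pair of libraries shared between 37 and 63 cell barcodes, against 36 to 71 for a random draw of barcodes. Cd8a or Cd8b1 was detected in 4842 of 4941 and 7635 of 8092 WT cells and in 5266 of 5366 and 6317 of 6494 Bcl3-/- cells, and a Cd4 UMI was found in at most 0.891% of cells of any library. Cd3e, a T cell receptor subunit, stood at 477 and 405 CPM (a gene's summed UMIs relative to all UMIs of the same cells) in WT and at 798 and 913 CPM in Bcl3-/- libraries. Some non-T cells were present: S100a8, a neutrophil gene, stood at 630 ± 166 CPM in WT and 1391 ± 89.6 CPM in Bcl3-/- libraries (SD, n = 2 each), and Lyz2, a gene of myeloid cells, at 955 ± 197 and 772 ± 57.8 CPM.

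The targeted gene did not check the labels. Bcl3 was counted at 33.2 CPM in WT of chimera 1 and 107.7 CPM in WT of chimera 2, and at 27.6 and 86.6 CPM in the libraries labelled Bcl3-/-. The libraries of chimera 2 were high in both genotypes and the groups overlapped. The counts are tags of the 3′ end, and the sources used here do not give which exons the deletion removes, so transcript outside the deleted part would still be counted. Groups are therefore named by the labels throughout.

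The 8 genes lie on 6 chromosomes of mouse build GRCm38 (annotation GENCODE M21). Pdcd1 spans bases 94038305 to 94052553 of chromosome 1 on the minus strand, and Ctla4 bases 60887000 to 60915832 of chromosome 1 on the plus strand. Lag3 lies on chromosome 6 (124904361 to 124911705, minus), Havcr2 on chromosome 11 (46454935 to 46481255, plus) and Cd160 on chromosome 3 (96798763 to 96829351, minus). Tigit and Btla both lie on chromosome 16 (43648867 to 43664146, minus, and 45224315 to 45257670, plus), and Tox on chromosome 4 (6686353 to 6991557, minus). No exon of another gene on either strand overlapped the last 500 bases of any of them, where 3′ tags fall. None shared chromosome 7 with Bcl3. Ptprc, the CD45 gene by which the marrows differ, is on chromosome 1, 44.1 megabases from Pdcd1 and 77.2 megabases from Ctla4.

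Because Bcl-3 works through NF-κB proteins, the 250 bases before the annotated start sites were searched on both strands for the κB consensus, for the AP-1 motif TGANTCA and for the NFAT core GGAAA (RefSeq sequences, build GRCm38.p6). A window was at hand for 6 of the 8 genes, and for Cd160 at both an outer and an inner start site. The windows of Pdcd1 and of the inner start site of Cd160 are shown, the genes with a window that were called lower in Bcl3-/- cells with the chimera as a block, and capitals mark the motif matches. The Pdcd1 window (chr1:94052554-94052803, minus strand) held adjoining NFAT cores on the opposite strand, starting 28 and 23 bases before the start site, and no κB or AP-1 match.
Pdcd1: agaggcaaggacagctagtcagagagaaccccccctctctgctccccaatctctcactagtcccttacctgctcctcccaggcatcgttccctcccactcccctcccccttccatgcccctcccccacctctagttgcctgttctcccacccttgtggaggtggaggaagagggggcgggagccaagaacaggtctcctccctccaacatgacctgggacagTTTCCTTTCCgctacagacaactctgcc
The Cd160 window (chr3:96814522-96814771, minus strand, inside the gene) held an NFAT core starting 145 bases and, on the opposite strand, a κB match starting 132 bases before the start site, the only κB match in the windows of these 6 genes.
Cd160: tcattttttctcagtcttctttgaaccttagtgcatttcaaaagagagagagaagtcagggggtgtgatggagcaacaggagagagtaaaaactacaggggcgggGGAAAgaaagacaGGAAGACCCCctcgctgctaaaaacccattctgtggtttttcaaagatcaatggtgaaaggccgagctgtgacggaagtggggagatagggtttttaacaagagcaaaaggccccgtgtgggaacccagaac
Among 32851 mouse windows of this length, 7.25% held a κB match, 6.75% an AP-1 match and 55.6% an NFAT core. Havcr2 had an AP-1 match 200 bases before its start, Tigit had NFAT cores at 110 and 13 bases, Ctla4 had 1 at 144 bases, and the Btla window had no match. The window of the outer Cd160 start site (chr3:96829352-96829601, minus strand) had no match of any of these motifs either. These are matches of letters only, and no binding was measured.

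In all cells together, transcripts of Lag3, Pdcd1 and Tox were the ones that stood lowest in Bcl3-/- relative to WT cells. Pooled over all kept cells, 6 of the 8 genes (Pdcd1, Lag3, Ctla4, Cd160, Btla and Tox) were lower in both Bcl3-/- libraries than in both WT libraries, and 23.1% of all 11566 genes tested had that order. Havcr2 and Tigit overlapped between genotypes. With edgeR's quasi-likelihood test over all genes, Benjamini-Hochberg adjusted, 0 of the 8 genes was called lower, where 0.0778% of all genes were. At an unadjusted p under 0.05, that fit held 1808 genes. The paper states that both genotypes were sorted from 1 chimeric animal, and the libraries were paired here by the number in their titles. With the chimera as a block in the fit, 4 of the 8 (Lag3, Pdcd1, Tox and Cd160) were called lower, against 4.84% of all genes. DESeq2 without the block called 3 of the 8 lower (Lag3, Pdcd1 and Tox), against 0.588% of genes. The median log2 change of the 8 genes was -0.41, and that of all genes was 0.0074.

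Lag3, which encodes a receptor for MHC class II and fibrinogen-like protein 1, gave the most UMIs of the 8 genes, 8278 in all. Its level was 130.8 CPM in WT and 83.7 CPM in Bcl3-/- cells of chimera 1, and 122.3 CPM in WT and 67.9 CPM in Bcl3-/- cells of chimera 2. The groups did not overlap, and the Bcl3-/- level was 63.9% of WT in chimera 1 and 55.5% in chimera 2. The group means were 127 ± 6.05 CPM in WT and 75.8 ± 11.2 CPM in Bcl3-/- cells (SD, n = 2 libraries each). The log2 change was -0.75 ± 0.14 (SE), with an edgeR adjusted p of 0.0975 without and of 3.05e-05 with the chimera as a block. With 1 library left out, where 1 library stands against 2, the spread comes from the pair alone and the lone library is assumed to vary like it. The change then ranged from -0.56 (without the Bcl3-/- library of chimera 2, edgeR adjusted p of 0.176) to -0.97 (without that of chimera 1, 0.00901).

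Pdcd1, the gene of PD-1, differed between chimeras as well as between genotypes. It stood at 57.8 CPM in WT and 37.6 CPM in Bcl3-/- cells of chimera 1, and at 82.2 and 47.7 CPM in chimera 2. Both Bcl3-/- libraries were below both WT libraries, and chimera 2 was the higher within each genotype. The log2 change was -0.73 ± 0.16, with an edgeR adjusted p of 0.125 without and of 8.25e-05 with the block. With 1 library left out it ranged from -0.50 (without the WT library of chimera 2, edgeR adjusted p of 0.212) to -0.94 (without that of chimera 1, 0.00735).

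Tox was the gene with the lowest point estimate, and the spread between the Bcl3-/- libraries was wide. Its level was 36.1 and 34.8 CPM in the WT libraries and 23.7 and 16.7 CPM in the Bcl3-/- libraries of chimeras 1 and 2. The WT libraries lay close together, and both Bcl3-/- libraries lay below them. The log2 change was -0.82, with an edgeR adjusted p of 0.133 without the block and of 0.000469 with it. With 1 library left out it ranged from -0.54 (without the Bcl3-/- library of chimera 2, edgeR adjusted p of 0.211) to -1.16 (without that of chimera 1, 0.00446).

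CD160 and BTLA are receptors of the same ligand, HVEM (Tnfrsf14). Cd160 was counted at 64.1 and 55.8 CPM in WT and at 50.6 and 41.2 CPM in Bcl3-/- libraries. The gap between the lowest WT and the highest Bcl3-/- library was narrower than the gap between chimeras of one genotype, and the log2 change was -0.40, with edgeR adjusted p of 0.275 without and 0.00541 with the block. Btla was scarce, at 10.5 and 8.8 CPM in WT and 8.0 and 7.6 CPM in Bcl3-/- libraries, and its edgeR adjusted p was 0.403 without and 0.234 with the block. B-like cells, present in all libraries as 105 to 134 cells, held Btla at 50.7 to 62.9 CPM, above every T cell class, and 11.3% of all Btla UMIs were found in them.

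Ctla4, which competes with CD28 for CD80 and CD86, stood at 17.2 and 20.2 CPM in WT and at 12.1 and 16.1 CPM in Bcl3-/- libraries. The groups did not overlap, but by a gap of only about 1 CPM, and the edgeR adjusted p was 0.255 without and 0.0502 with the block. With T cell clusters alone and the block, Ctla4 was called as well, so that 5 of 8 genes were lower where 6.99% of all genes were, a setting added after the data were seen. In that setting, which leaves out the myeloid and B-like clusters, the log2 changes of Lag3, Pdcd1 and Tox were -0.75, -0.71 and -0.83. Havcr2, the gene of TIM-3, gave 31.3 and 27.2 CPM in WT and 25.4 and 28.4 CPM in Bcl3-/- libraries. Here the groups overlapped, chimera 2 was slightly higher in Bcl3-/- cells, and the log2 change of -0.14 had an edgeR adjusted p of 0.589. Tigit, whose product binds CD155, was the scarcest with 426 UMIs in all, at 5.1 and 3.1 CPM in WT and 4.8 and 7.5 CPM in Bcl3-/- libraries. It was the single gene of the 8 with a positive change, 0.56, at an edgeR adjusted p of 0.418, and the chimeras moved in opposite directions.

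**Figure D1:**
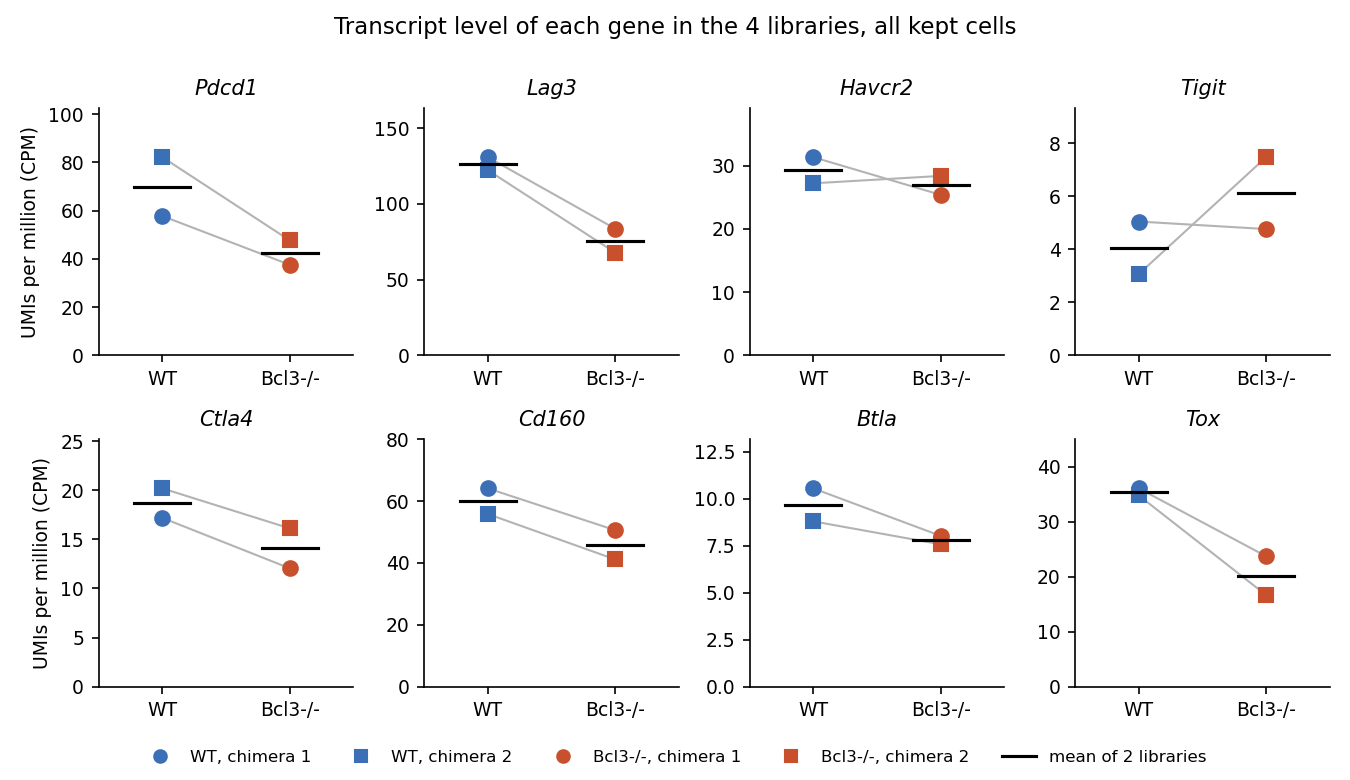
Level of each of the 8 genes in CPM over all kept cells (vertical axis, starting at 0) in WT and Bcl3-/- libraries; points are libraries, grey lines join the libraries of a chimera and black bars are means of 2 libraries. Lag3 lay at 122.3 and 130.8 CPM in WT and at 67.9 and 83.7 CPM in Bcl3-/- cells, while Havcr2 and Tigit overlapped.

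The libraries were clustered one at a time without the 8 genes, and clusters were sorted into classes by marker genes. Terminal effector clusters (Zeb2, Cx3cr1, Klrg1, S1pr5) held 414, 916, 984 and 1004 cells in WT chimera 1, WT chimera 2, Bcl3-/- chimera 1 and Bcl3-/- chimera 2. Cycling clusters held 839, 1057, 590 and 699 cells, and clusters led by interferon-stimulated genes 423, 474, 404 and 501. In each library 1 cluster was led by Tcf7, Ccr7, Dapl1 and Id3, with 332, 453, 128 and 224 cells. It met the list of memory precursor (MPEC) genes and the list of naive T cell genes at once, with the naive genes more numerous among its 10 leading genes in 3 of 4 libraries, and it is called the Tcf7-high cluster here. In Bcl3-/- cells of chimera 1, Cd4 was also among those 10 genes. The remaining 2615, 4816, 2845 and 3625 T cells met no list and are called unnamed T cells. They pool 4, 4, 3 and 4 clusters of unlike make-up: the cluster of 929 cells in WT chimera 1 was led by Klrg1 and Cx3cr1, and that of 838 cells in Bcl3-/- chimera 1 by Tcf7 and Il7r, so genotype values in this class compare unlike mixtures of clusters. Clusters come from the same cells as the values, so levels across classes are descriptions without a test.

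Terminal effectors were at the low end for most of the receptors. Pdcd1, Ctla4, Cd160, Btla and Tox each had their lowest level in terminal effectors in 4 of 4 libraries. When cells were thinned to 1000 UMIs this held in 4 of 4 libraries for Pdcd1, Ctla4 and Tox and not for Cd160 and Btla. Pdcd1 in terminal effectors was 23.7 and 58.3 CPM in WT and 21.3 and 24.0 CPM in Bcl3-/- libraries, against 51.6, 81.4, 42.1 and 52.7 CPM in unnamed T cells of the same libraries. Cd160 in terminal effectors ranged from 28.1 to 44.5 CPM and in cycling cells from 56.8 to 97.8 CPM, with no overlap between those classes. Havcr2 departed from this order: it was at 24.7 to 32.7 CPM in terminal effectors and lowest in the Tcf7-high cluster in 4 of 4 libraries, where 20 UMIs were found over all libraries (1.02 to 11.7 CPM). With thinning, Havcr2 was highest in cycling cells in 4 of 4 libraries.

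Tox had the opposite place. It was highest in the Tcf7-high cluster in 4 of 4 libraries, at 106 and 114 CPM in WT and 49.3 and 63.8 CPM in Bcl3-/- cells, and lowest in terminal effectors, at 14.7, 18.6, 9.0 and 3.0 CPM. Cycling cells came next in mean level, at 42.8, 48.9, 18.8 and 20.7 CPM, and overlapped with interferon-stimulated and unnamed T cells. Pdcd1 was also high in the Tcf7-high cluster, at 100 and 119 CPM in WT and 56.9 and 69.5 CPM in Bcl3-/- libraries, but its highest class was that cluster in 3 libraries and the interferon-stimulated cells in 1. Thinning turned that count to 1 and 3, so the order of those classes was not resolved for Pdcd1.

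Lag3 was highest in interferon-stimulated cells in 4 of 4 libraries, with and without thinning. It reached 164 and 176 CPM there in WT and 136 and 98.4 CPM in Bcl3-/- libraries, above unnamed T cells of the same library in every case. Its levels in terminal effector, cycling and Tcf7-high cells overlapped. Ctla4 was highest in interferon-stimulated cells in 3 libraries and in the Tcf7-high cluster in 1, from 58 to 751 UMIs per class over the 4 libraries, and Tigit, with 20 to 227 UMIs per class, had no class that was highest in all libraries.

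**Figure D2:**
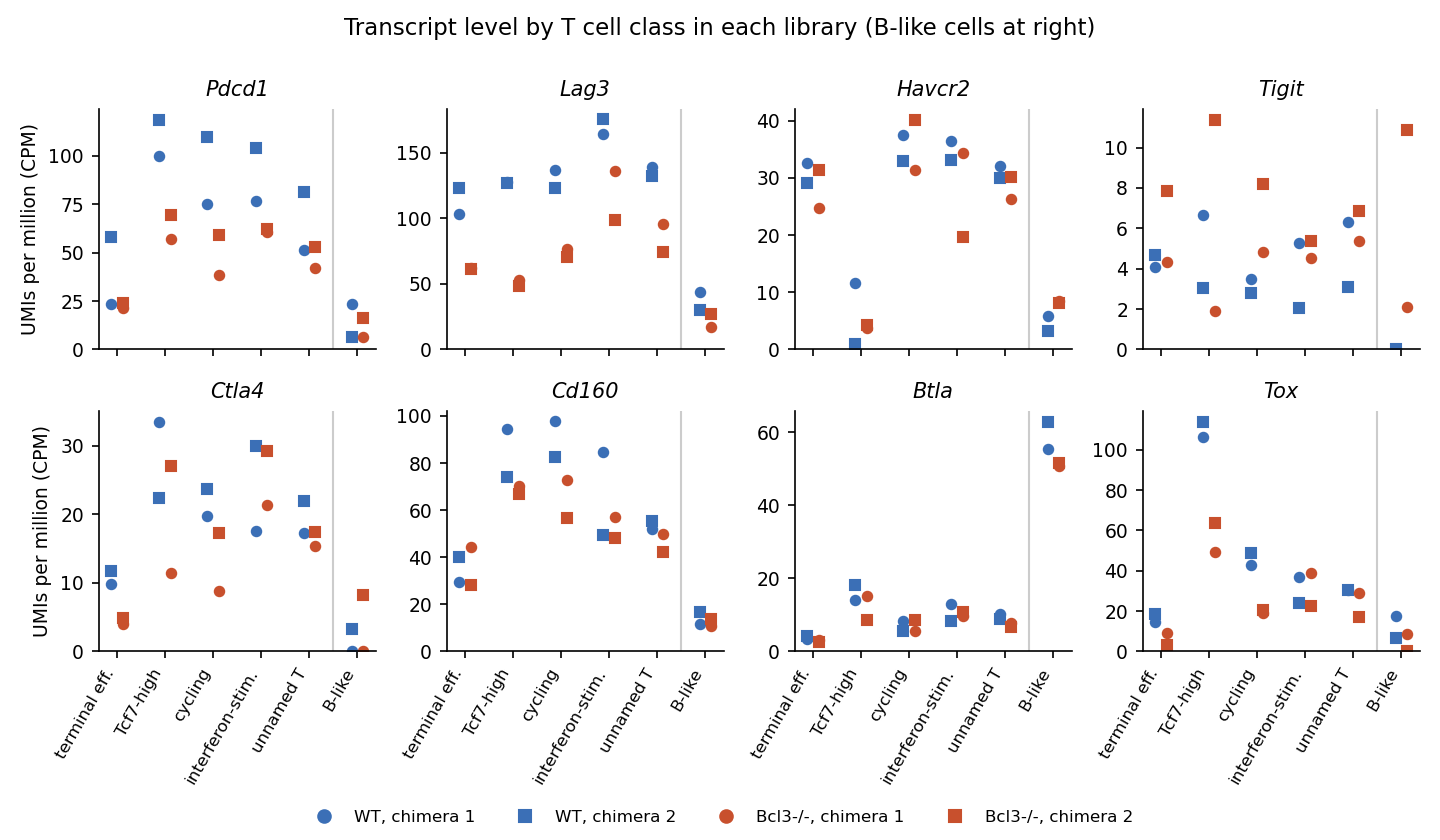
Level of each gene in CPM (vertical axis, starting at 0) in the 5 T cell classes and, right of the grey line, in B-like cells; each point is 1 library, with colour for genotype and shape for chimera. Tox stood highest in the Tcf7-high cluster of every library, Lag3 in interferon-stimulated cells, and Btla in B-like cells.

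The genotypes were then compared within each class, 1 edgeR fit per class. In unthinned cells, Lag3 was below WT in both chimeras in all 5 classes, and without the block it was called lower in 3 of them. In terminal effectors it went from 102.9 and 123.0 CPM in WT to 61.8 and 61.4 CPM in Bcl3-/- cells, in the Tcf7-high cluster from 127.8 and 126.9 to 53.1 and 48.2 CPM, and in cycling cells from 137.0 and 122.8 to 76.3 and 70.2 CPM. No class of these had overlapping groups. The log2 changes were -0.90 (edgeR adjusted p of 0.00962), -1.32 (0.000719) and -0.85 (0.0436). In interferon-stimulated cells Lag3 was -0.55 (edgeR adjusted p of 0.437) and in unnamed T cells -0.69 (0.191).

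Tox was called lower in 2 classes without the block. In cycling cells it went from 42.8 and 48.9 CPM in WT to 18.8 and 20.7 CPM in Bcl3-/- cells, a log2 change of -1.24 ± 0.16 with an edgeR adjusted p of 0.0238. The cycling class pools a cluster led by Ccnb2, a mitotic cyclin (416 of 839 and 489 of 1057 WT cells, 336 of 590 and 381 of 699 Bcl3-/- cells), with clusters led by replication or histone genes. Tox stood at 24.7 and 35.1 CPM in WT and at 12.6 and 20.1 CPM in Bcl3-/- cells in the Ccnb2-led clusters, and in the others at 53.2 to 57.0 CPM in WT and 19.4 to 25.6 CPM in Bcl3-/- cells. In the Tcf7-high cluster the change was -0.92 ± 0.21, with an edgeR adjusted p of 0.0259 (0.107 without the Bcl3-/- library of chimera 1). With cells thinned to 1000 UMIs, Tox in the Tcf7-high cluster was 111 and 91.7 CPM in WT and 46.9 and 103 CPM in Bcl3-/- cells. The groups then overlapped, and chimera 2 was higher in Bcl3-/- cells. The Bcl3-/- minus WT share of these cells with a Tox UMI in chimera 2 was 2.29 percentage points at 1000 UMIs and -1.52 at 500 UMIs. In interferon-stimulated cells Tox stood at 37.0 and 23.8 CPM in WT and at 38.9 and 22.7 CPM in Bcl3-/- cells, and the groups overlapped, with a log2 change of -0.07 and an edgeR adjusted p of 0.983. In terminal effectors, at 14.7 and 18.6 CPM in WT and 9.0 and 3.0 CPM in Bcl3-/- cells, the change was -1.45 ± 0.43, with 87 UMIs behind it and an edgeR adjusted p of 0.188. These levels overlapped those of B-like cells, which held 6, 2, 4 and 0 Tox UMIs (17.5 and 6.63 CPM in WT and 8.45 and 0 CPM in Bcl3-/- libraries), so Tox in terminal effectors was near background, also for the call with the block. In unnamed T cells Tox stood at 30.6 and 30.4 CPM in WT and at 29.1 and 17.1 CPM in Bcl3-/- cells, with a change of -0.41 and an edgeR adjusted p of 0.579.

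Counted per class without the block, 1 of 7 tested genes of the 8 was called lower in terminal effectors (0.459% of all genes), 2 of 6 in the Tcf7-high cluster (0.121%), 2 of 8 in cycling cells (0.0753%), 0 of 7 in interferon-stimulated cells (0.0906%) and 0 of 8 in unnamed T cells (0.0677%). With the chimera as a block, 4 were called lower in terminal effectors (Lag3, Pdcd1, Tox and Ctla4; 2.86% of all genes), 3 in the Tcf7-high cluster (Lag3, Tox and Pdcd1; 1.03%), 5 in cycling cells (Tox, Lag3, Pdcd1, Cd160 and Ctla4; 2.64%), 0 in interferon-stimulated cells (0.647%) and 2 in unnamed T cells (Lag3 and Pdcd1; 2.3%). None of the 8 was called higher in any class in either fit. Pdcd1 in terminal effectors stood at 23.7 and 58.3 CPM in WT and 21.3 and 24.0 CPM in Bcl3-/- cells. B-like cells held Pdcd1 at 23.4 and 6.63 CPM in WT and 6.34 and 16.3 CPM in Bcl3-/- libraries. Pdcd1 was thus above B-like cells in every library, but near that background in WT of chimera 1. Ctla4 in terminal effectors stood at 9.80 and 11.7 CPM in WT and 4.02 and 4.87 CPM in Bcl3-/- cells. B-like cells held Ctla4 at 0 and 3.31 CPM in WT and 0 and 8.16 CPM in Bcl3-/- libraries. In Bcl3-/- terminal effectors Ctla4 was near background, and in chimera 2 it was below B-like cells. Lag3 in terminal effectors was above B-like cells (16.9 to 43.8 CPM) in every library. Pdcd1 in cycling cells, at 75.0 and 109.9 CPM in WT and 38.5 and 59.0 CPM in Bcl3-/- cells, changed by -0.95, with an edgeR adjusted p of 0.181 without and 3.02e-08 with the block. In terminal effectors its change of -0.94 rested on the WT library of chimera 2, without which it was -0.13.

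Lag3 was called in terminal effectors and in the Tcf7-high cluster whichever library was left out, with the same limit that the spread came from 1 genotype's pair. Without the WT library of chimera 2, no gene was called in cycling cells (386 at an unadjusted p under 0.05), and the edgeR adjusted p of both Lag3 and Tox was 0.905 at log2 changes of -0.95 and -1.17. The Tcf7-high cluster held a Cd4 UMI in 5.12% and 4.64% of WT and in 13.3% and 4.46% of Bcl3-/- cells, but Cd8a or Cd8b1 in 95.8%, 90.7%, 93.8% and 93.8%. Without cells holding a Cd4 UMI, Lag3 there was -1.28 (edgeR adjusted p of 0.00495), Pdcd1 was called at -1.01 (0.0375) and Tox was -0.93 (0.0601), so that 2 of the tested genes were again called lower, against 0.107% of all genes.

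Whether the genotype effect differed between classes was tested in 1 fit over the 20 sums of library and class, with library as a block, an analysis added after the data were seen. Over 10 pairs of classes and the 8 genes, 80 tests were made, and 0 were called after adjustment over all 9425 genes of a pair by edgeR, while 15 had an unadjusted p under 0.05. The smallest edgeR adjusted p was 0.277, for Tox, whose log2 change was 0.82 ± 0.22 less negative in unnamed T cells than in cycling cells, a pair in which 0.0531% of all genes were called. Between terminal effectors and unnamed T cells 0.658% of genes were called, the most of any pair, and none of the 8 was among them. The difference between the Tox change in interferon-stimulated and in cycling cells was 1.15 ± 0.32, at an edgeR adjusted p of 0.689.

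**Figure D3:**
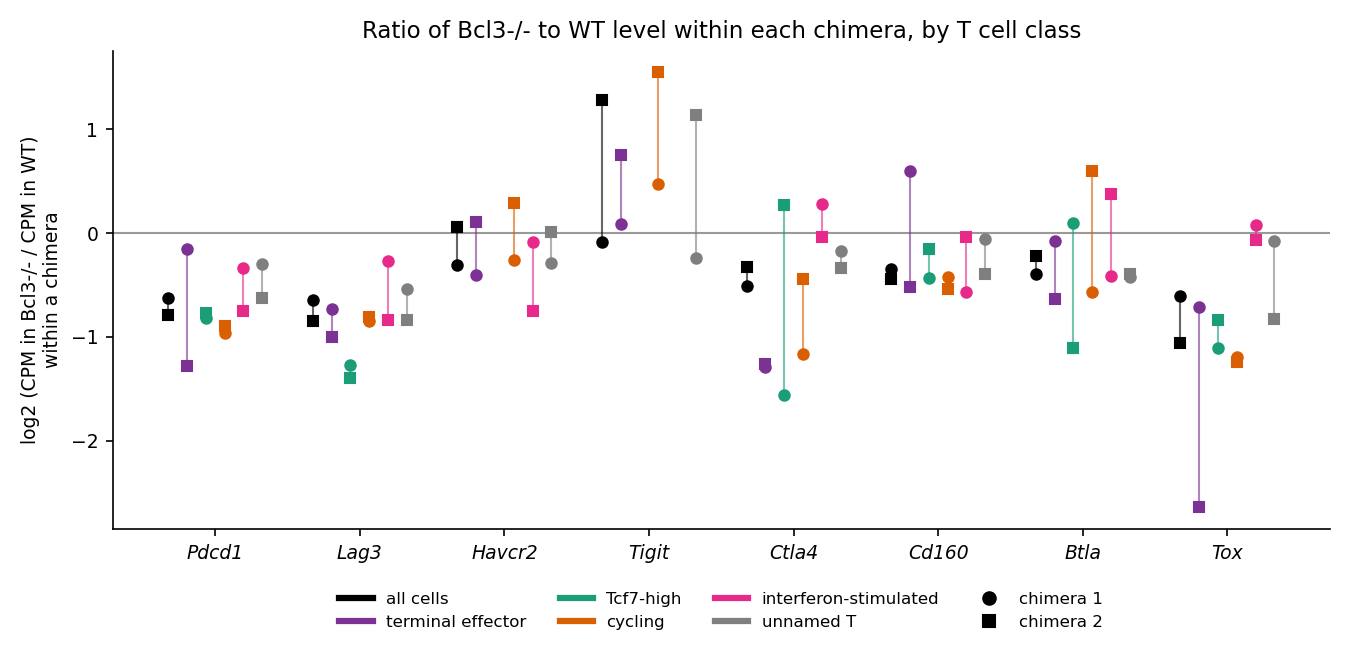
Log2 ratio of the Bcl3-/- to the WT level within each chimera (vertical axis) for each gene, in all cells and in the 5 T cell classes; a line joins the 2 chimeras, and values with 3 or fewer UMIs in a library are left out. Both chimeras lay below 0 for Lag3 and Pdcd1 in every class shown, and near 0 for Tox in interferon-stimulated cells.

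Shares of cells with a UMI were compared at equal depth. With every cell thinned to 1000 UMIs, which left out 25, 223, 15 and 19 shallower cells, a Lag3 UMI was found in 11.7% (95% Clopper-Pearson interval 10.8 to 12.6) and 11.2% (10.5 to 11.9) of WT cells and in 7.51% (6.82 to 8.25) and 6.64% (6.05 to 7.27) of Bcl3-/- cells. B-like cells of the same libraries, which should lack Lag3, had it in 1.90%, 0.893%, 2.24% and 2.36%. The Lag3 share lay above that of B-like cells in all libraries, although in Bcl3-/- cells of chimera 2 its interval overlapped that of the B-like cells (0.490 to 6.75). Intervals here cover counting error only.

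A Pdcd1 UMI was found in 5.04% and 7.35% of WT and in 3.31% and 4.31% of Bcl3-/- cells, and in 0.746% to 0.952% of B-like cells. A Tox UMI was found in 3.09% and 3.02% of WT and in 2.30% and 1.61% of Bcl3-/- cells. In B-like cells Tox was found in 0 of 105, 112, 134 and 127 thinned cells, which allows a share of up to 2.86%, 2.68%, 2.24% and 2.36% by the limit of 3 counts. The Tox share lay above that limit in both WT libraries and in Bcl3-/- cells of chimera 1. In Bcl3-/- cells of chimera 2 it lay below. The upper ends of the Clopper-Pearson intervals there were 3.45%, 3.24%, 2.72% and 2.86%, above the Tox share of each library. The bounds thus disagreed, and the B-like cells were too few to set the Tox shares apart from background by both. The Btla share was below its level in B-like cells in every library, and Tigit, at 0.267% to 0.549%, lay under the limit that the B-like cells allow. For Lag3, Pdcd1, Tox, Cd160, Havcr2 and Btla, both Bcl3-/- shares were below both WT shares, and the 2-sided exact permutation p was 0.33, the smallest that 2 against 2 libraries can give. With cells thinned to 500 UMIs this order held for Lag3, Pdcd1, Tox, Havcr2 and Ctla4 and not for Cd160 and Btla. How many of all genes had that order in shares of cells was not counted, so these counts stand without a background.

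Unthinned, the Lag3 share was 34.5% and 21.7% in WT and 25.3% and 17.8% in Bcl3-/- cells, so that the groups overlapped. The shallower WT library of chimera 2 then stood below the Bcl3-/- library of chimera 1. For Pdcd1, both Bcl3-/- libraries (695 of 5366 and 856 of 6494 cells) were below both WT libraries (827 of 4941 and 1244 of 8092 cells).

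**Figure D4:**
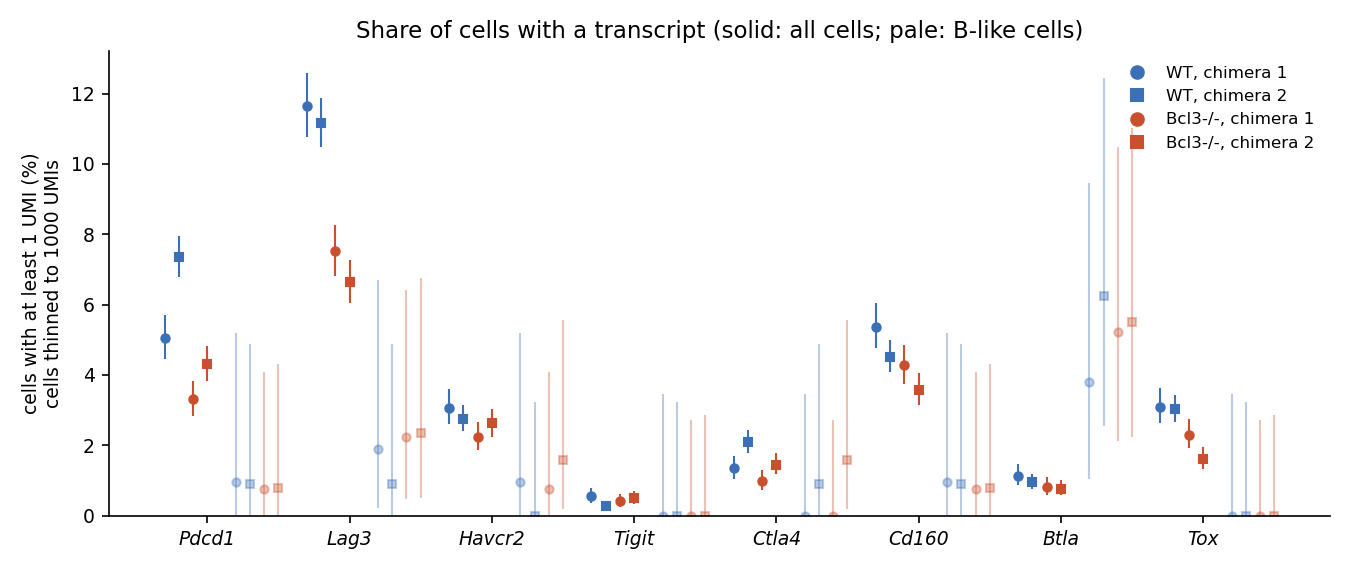
Share of cells with at least 1 UMI of each gene after thinning to 1000 UMIs (vertical axis, percent, starting at 0), in all cells (solid) and in B-like cells (pale); points are libraries and bars are 95% Clopper-Pearson intervals. For Lag3 the WT intervals (10.5 to 12.6%) lay above the Bcl3-/- intervals (6.05 to 8.25%).

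Few cells held transcripts of several of the 8 genes at this depth. Among thinned T cells, 72.1% in both WT libraries and 79.6% and 80.1% in the Bcl3-/- libraries had no UMI of any of them. Exactly 1 of the genes was found in 23.5% and 23.3% of WT and in 18.1% and 17.7% of Bcl3-/- T cells, 2 in 182 of 4603 and 300 of 7506 against 106 of 4946 and 117 of 6040, and 3 or more in under 0.6% of T cells of every library. Pdcd1 and Tox met in the same cell more often than their separate shares give, in 79 cells where 34.7 would be expected, and the ratio was between 1.96 and 2.63 in the 4 libraries. In WT cells of chimera 1, Tox was found in 8.64% of cells with and in 2.98% of cells without a Pdcd1 UMI, and in Bcl3-/- cells of chimera 1 in 6.40% and 2.35%. The intervals of the shares with and without Pdcd1 lay apart in 4 of 4 libraries for Tox and in 1 of 4 for Lag3, which met Pdcd1 in 166 cells where 128 would be expected. Both Pdcd1 and Tox were high in the Tcf7-high cluster, and co-detection within a class was not tested. Havcr2 and Tox met in 17 cells, where 17.3 would be expected.

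Across the 20 points of library and class, which share libraries and depth, Pdcd1 went most closely with Ctla4 among the 8 genes (Pearson r of log2(CPM + 10) of 0.85), and Tox with Btla (0.81), Pdcd1 (0.78) and Cd160 (0.78). Havcr2 and Tox ran against each other (-0.63). Among all genes with a mean of at least 10 CPM, Pdcd1 was most like Tnfrsf9 (0.90), the gene of the costimulatory receptor 4-1BB, and Tox was like Tspan13 (0.89) and Slamf6 (0.88). Havcr2 was most like Gzmb (0.94), which encodes granzyme B. Lag3 was most like Oas1a (0.88), an interferon-induced gene, and Psmb10 (0.87), a subunit of the immunoproteasome. Ctla4 was most like Gpr183 (0.91), Cd160 like Cnpy2 (0.91) and Mif (0.90), and Btla like St6galnac3 (0.91).

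Genes around the 8 in the pathway were read from 5 lists. Without the block 0 genes of the lists were called in either direction by edgeR, where 0.363% of all genes were. With the block, the lists held calls in both directions, beside 4.81% of all genes higher and 4.84% lower. Of 12 tested activating partners, which share ligands or signalling routes with the inhibitory receptors or act as costimulators, 6 were lower and 1 higher. Tnfrsf9 stood at 41.6 and 59.2 CPM (TMM-scaled, as are the pathway levels that follow) in WT and at 24.8 and 35.4 CPM in Bcl3-/- libraries, a log2 change of -0.75 with an edgeR adjusted p of 8.7e-05 with the block. Tnfrsf4, the gene of OX40, fell from 13.4 and 11.5 CPM to 6.1 and 5.6 CPM in Bcl3-/- libraries (-1.07, edgeR adjusted p of 0.00083 with the block). It was among the leading genes of the Tcf7-high cluster in 1 library, and that cluster held 332 of 4941 and 453 of 8092 WT cells and 128 of 5366 and 224 of 6494 Bcl3-/- cells. Within that cluster the Tnfrsf4 change was -0.01 and within cycling cells -1.52 (edgeR adjusted p of 0.990 and 3.26e-05 with the block). Icos and Tnfrsf18, which encode costimulators, were lower and Cd27 was higher with the block, and Cd2, at 831 to 938 CPM, was not called.

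Of 22 tested transcription factors of the TOX family or linked to exhaustion, 5 were higher and 0 lower with the block. Id2, an inhibitor of E proteins that favours effector fate, rose from 755 and 647 CPM in WT to 1221 and 1376 CPM in Bcl3-/- libraries (0.89, edgeR adjusted p of 2.9e-05 with and 0.0519 without the block). Bhlhe40 rose from 75.2 and 41.0 to 108.6 and 104.8 CPM, Nfatc1 and Tbx21 by less, and Eomes rose from 21.5 to 33.0 CPM in chimera 1 and from 14.7 to 18.6 CPM in chimera 2. Batf, an AP-1 family factor, stood at 150.8 and 152.6 CPM in WT and 140.0 and 140.7 CPM in Bcl3-/- libraries and was not called. The median log2 change of this list was 0.07, and that of the activating partners was -0.19.

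Of 19 other inhibitory receptors, 2 were higher with the block and 0 lower. Klrg1, a receptor for cadherins that marks terminal effectors, stood at 165.9 and 157.1 CPM in WT and at 246.1 and 197.5 CPM in Bcl3-/- libraries (0.45, edgeR adjusted p of 0.0016 with the block). Klrg1 was one of the markers of the terminal effector clusters, which made up 8.38% and 11.3% of WT and 18.3% and 15.5% of Bcl3-/- cells. Within terminal effectors its change was 0.29 and within unnamed T cells 0.12 (edgeR adjusted p of 0.0328 and 0.421 with the block). Klrc1, the gene of NKG2A, rose by 0.51 (edgeR adjusted p of 0.0068 with the block). Cd48, the most abundant of this list, stood at 567, 584, 563 and 596 CPM. In the inhibitory signalling list, 1 of 18 genes was called with the block, Lax1 (0.33 higher, edgeR adjusted p of 0.020). Ptpn6, which encodes the phosphatase SHP-1, was at 237 and 271 CPM in WT and at 247 and 267 CPM in Bcl3-/- libraries, and Ptpn22 was at 237 to 246 CPM in all. Of 12 tested ligands, Cd86 and H2-Ab1 were lower with the block, and both are genes of antigen-presenting cells. The most abundant ligand genes, Hmgb1 (447 to 599 CPM) and H2-Aa (362 to 398 CPM), were not called. H2-Ab1 stood at 2858 to 3860 CPM in B-like cells. With T cell clusters alone, H2-Ab1 stood at 85.8 ± 2.46 CPM in WT and 57.7 ± 12.9 CPM in Bcl3-/- cells (SD, n = 2), and the part of RNA from antigen-presenting cells in its change was not tested.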

How the data were processed

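Per the labels and the methods, the authors made 10x Genomics 3′ (v2) libraries, used bcl2fastq 2.17 and Cell Ranger 2.2.0 with build mm10, and deposited unfiltered matrices of UMI counts, 1 per library, with no normalization. Barcodes under 500 genes or over 10% mitochondrial UMIs were removed. Clusters were called per library (Seurat 5.3.0, R 4.3.3; 2000 variable genes without the 8 genes, 15 principal components, resolution 0.8) and named from marker lists by a rule set after the clusters were seen. Clusters under 1% of cells were left out of classes, and no doublet caller was run. UMI counts were summed per library, or per library and class, and compared with edgeR 4.0.16 (TMM scaling, filterByExpr, quasi-likelihood test, Benjamini-Hochberg adjustment at 0.05 over all genes tested), with the chimera as a block in an alternative fit, and with DESeq2 1.42.0. The scripts were tested on simulated data. CPM are UMIs scaled to a common total; since 3′ tags do not scale with transcript length, no length scaling was made. Thinning drew 1000 UMIs per cell.

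The chimera number was read from the library titles and taken as that of the animal, so it pairs the libraries. WT minus WT differences between chimeras correlated with Bcl3-/- minus Bcl3-/- differences at r = 0.29 across 6862 genes over 10 CPM. Whether this came from the animal, the experiment or the depth was not tested. With 2 libraries per genotype, p-values without the block set the genotype difference against the spread between 2 animals. With the block, they set it against how far the WT to Bcl3-/- difference varied between the 2 chimeras. The 8 genes and the pathway lists were chosen with earlier results of these data known. From each pathway list, the 2 most abundant genes and up to 5 genes called with the block, by lowest p, were named, and for each of the 8 genes with at least 500 UMIs up to 3 genes most like it. Of 27998 gene IDs, 27645 matched GENCODE M21. Alternatives were the block, DESeq2, RLE scaling, no count filter, stricter cell filters, T cell clusters only, equal depth, other clusterings and leaving out each library.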

Additional observations from a re-analysis of the deposited data

How the results depend on the processing

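Over all cells, the log2 change of each of the 8 genes kept its sign in every edgeR and DESeq2 fit run. Of the shares of cells, the mean Bcl3-/- minus WT difference turned positive for Btla at 500 UMIs (0.027 percentage points, against -0.249 at 1000) and for Havcr2 without thinning (0.570, against -0.481). The number of them called lower, 0 in the fit without the block, was 4 with the replicate block, 3 with DESeq2, 1 at equal depth and cells, 5 with T cell clusters only and the block, and 4 without Cd4-positive cells and with the block (the last 2 added after the data were seen), and 0 to 2 when 1 library was left out. The number of all genes called was 42 without and 1116 with the block, 195 with DESeq2, 1547 with T cell clusters only and the block, 1159 without Cd4-positive cells and with the block, 55 at equal depth and cells (11 of 9886 lower), and 40 to 228 when 1 library was left out. Those totals count both directions. Genes called lower alone were 9 without and 560 with the block, and 69 with DESeq2. They were 776 with T cell clusters only and the block, and 571 without Cd4-positive cells and with the block. RLE scaling, no count filter, stricter cell filters and T cell clusters only without the block called 0 of the 8. Among all genes, 9 of 11566 were called lower with RLE scaling and 7 of 16538 with no count filter. With at least 800 genes per cell they were 10 of 11560, and with at most 5% mitochondrial UMIs 10 of 11514. T cell clusters only gave 6 of 11097. Pathway genes called went from 0 to 17 with the block.

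Within classes the number called went from 1 to 4 in terminal effectors with the block (3 without Cd4-positive cells, 1 to 3 leaving out a library), from 2 to 5 in cycling cells (0 to 4), and from 0 to 2 in unnamed T cells (3 without Cd4-positive cells, 0 to 2). The genes called lower among all tested moved as well: without Cd4-positive cells and with the block they were 231 of 8273 in terminal effectors and 345 of 10341 in unnamed T cells, and with a library left out 36 to 108 in terminal effectors, 0 to 93 in cycling and 9 to 75 in unnamed T cells. In the Tcf7-high cluster 1 of the 8 was called at clustering resolution 0.4 (5 of all 6493 genes lower) and 1 to 2 leaving out a library (14 to 32 of all genes), and in interferon-stimulated cells 0 to 1 (1 to 122 of all genes). Tox in interferon-stimulated cells (-0.07) reversed to 0.010 with the block, 0.28 at resolution 0.4, 0.10 with the 8 genes among the variable genes, and ranged from -0.53 to 0.35 when 1 library was left out. Tox in unnamed T cells (-0.41) was called without the Bcl3-/- library of chimera 1 (-0.90, edgeR adjusted p of 0.00635) and was -0.04 without that of chimera 2. With a library left out, the spread comes only from the genotype that keeps its pair. At resolution 0.4 a library had no terminal effector cluster, so that class could not be fitted. Without thinning, 1 of the 8 genes and not 6 had both Bcl3-/- shares below both WT shares, and at 500 UMIs 5 had, with that order not counted over all genes. The cause of these changes was not tested. Depth limits Tigit, Btla and Ctla4 most, at 426, 720 and 1345 UMIs.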
